A study of Mus musculus with 16 samples.

Results

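The 35 genes described here encode the proteins that copy DNA in S phase and divide it in mitosis. They were listed by name, with no measured value in the rule, though the list was chosen with earlier results of these data known. They are 35 of the 55421 Ensembl genes in each deposited count table. By role, 15 act in replication (the helicase and its loading, the fork, the supply of deoxynucleotides) and 20 in mitosis (cyclins, kinases, the spindle checkpoint, the spindle, chromosome structure). RNA was sequenced from WAT and liver of C57BL/6 mice fed HFD, as the labels write it. Gpr132, a G protein coupled receptor, was either floxed (fl/fl) or floxed together with Lyz2-cre (CKO), whose Cre is driven by a gene of myeloid cells, so cells without Cre keep the receptor. Mice of both genotypes received vehicle or NOX_6_18, which the submitters describe as an antagonist. Tissue, genotype and treatment give 8 groups of 2 libraries, and the study's question was how the antagonist and the receptor act in macrophages of the 2 tissues. The labels name macrophages of either tissue as the source of the RNA, while describing tissue frozen in liquid nitrogen before TRIzol extraction. Age, dose and duration are not given in the labels used here. Whether both libraries of a group stem from different animals is not said, so the p-values below speak of the scatter among these libraries alone, part of which may be technical.

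Replication starts when the Mcm2 to Mcm7 ring, the replicative helicase, is loaded on chromatin by Cdc6 and switched on by Cdc45 and the GINS complex. Cyclin A2 and then the B cyclins with Cdk1 carry the cell into mitosis, where Aurora and Polo kinases build the spindle and the checkpoint holds the anaphase-promoting complex until chromosomes are attached. These genes are read as a proliferation signature in most tissues, since resting cells such as hepatocytes, adipocytes and most tissue macrophages keep them low. Replication genes are classically controlled through E2F sites and mitotic genes through CCAAT boxes and CHR elements in their promoters.

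A WAT library held 48348395 to 58396991 counts and a liver library 45624957 to 60761705. The 35 genes had between 192 (Gins1) and 9054 (Pcna) counts in each WAT library and between 35 (Gins2) and 2740 (Pcna) in each liver library. In WAT and in liver all 35 passed the filter on low counts. The fl/fl vehicle libraries of WAT stood apart from the other 6 WAT libraries, with 25039 and 25702 genes detected against 30393 to 31289. Their summed markers of germ cells differed too: 13 spermatocyte genes summed to 14.9 and 17.0 CPM (counts relative to the scaled library total) against 593 to 633, and 10 spermatid genes to 27.2 and 22.3 CPM against 802 to 872. Of the 13, 11 had counts in each of these 2 libraries and all 13 in the other 6. Macrophage markers (13 genes) summed to 11523 and 12398 CPM in those 2 libraries and to 8588 to 8899 CPM in the other 6. Epididymal epithelium markers (7 genes) summed to 420 and 380 CPM against 1016 to 1105 CPM, and red cell markers (8 genes) to 865 and 748 CPM against 1633 to 1879 CPM. The sources used here do not say whether the fat was dissected in the same way for these libraries. Every call within WAT among the 35 genes comes from a comparison that includes them, and the part of these markers in the calls was not tested. Counts of mitochondrial genes took 43.0% to 44.9% of the liver libraries and hepatocyte markers summed to 2667 to 2961 CPM there, against 2947 to 3265 CPM of macrophage markers. In WAT fibroblast markers (8 genes) summed to 11440 to 22085 CPM, so the named macrophages were not the only cells whose markers were present in either tissue. Gpr132, the targeted gene, was at 72.5 and 69.7 CPM in WAT of fl/fl mice on vehicle and at 35.6 and 64.6 CPM in CKO mice on vehicle, a difference of -0.51 ± 0.22 on the log2 scale (SE, adjusted p = 0.115). In liver it was at 4.26 and 4.04 CPM against 1.86 and 1.46 CPM (-1.32 ± 0.24, adjusted p = 0.0162).

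Promoters of 27 of the 35 genes were found in the RefSeq table (GRCm38.p6), each running from 250 bases before to 50 bases after a start site. The 6 shown belong to the genes of smallest adjusted p among matched mitosis and among matched replication genes, for NOX_6_18 in WAT of fl/fl mice. They are those of 4 genes with higher counts on NOX_6_18 (Aurka, Cdc20, Plk1, Mcm7) and 2 with lower counts (Mcm2, Pcna). They lie at chr2:172370521-172370820 (minus strand, Aurka), chr4:118437294-118437593 (minus, Cdc20), chr7:122159185-122159484 (plus, Plk1), chr5:138171834-138172133 (minus, Mcm7, the first listed of its starts), chr6:88898731-88899030 (minus, Mcm2) and chr2:132253131-132253430 (minus, Pcna). Capitals mark every match, on either strand, to the CCAAT box, the CHR element or an E2F site.
Aurka: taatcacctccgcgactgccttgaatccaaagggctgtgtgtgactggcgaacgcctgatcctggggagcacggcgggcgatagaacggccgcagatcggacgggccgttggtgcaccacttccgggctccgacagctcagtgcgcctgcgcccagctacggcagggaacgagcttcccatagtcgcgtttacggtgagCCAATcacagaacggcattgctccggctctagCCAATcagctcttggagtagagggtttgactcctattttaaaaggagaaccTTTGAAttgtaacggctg
Cdc20: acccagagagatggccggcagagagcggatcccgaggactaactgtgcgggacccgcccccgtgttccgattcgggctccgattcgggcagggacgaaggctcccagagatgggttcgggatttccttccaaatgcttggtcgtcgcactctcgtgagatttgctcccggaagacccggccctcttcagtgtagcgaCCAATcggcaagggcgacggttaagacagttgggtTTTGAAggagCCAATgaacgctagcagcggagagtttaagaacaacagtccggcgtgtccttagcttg
Plk1: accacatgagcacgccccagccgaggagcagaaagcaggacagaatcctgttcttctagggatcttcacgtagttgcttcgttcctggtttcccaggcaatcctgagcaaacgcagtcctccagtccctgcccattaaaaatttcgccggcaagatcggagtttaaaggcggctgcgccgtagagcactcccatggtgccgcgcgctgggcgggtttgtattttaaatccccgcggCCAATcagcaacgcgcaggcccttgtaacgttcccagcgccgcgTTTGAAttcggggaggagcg
Mcm7: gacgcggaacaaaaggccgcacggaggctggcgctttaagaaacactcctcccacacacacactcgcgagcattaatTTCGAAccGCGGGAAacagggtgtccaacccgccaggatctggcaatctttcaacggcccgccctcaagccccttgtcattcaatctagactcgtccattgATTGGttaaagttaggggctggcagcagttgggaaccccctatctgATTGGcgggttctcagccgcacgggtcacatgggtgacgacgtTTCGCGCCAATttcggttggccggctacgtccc
Mcm2: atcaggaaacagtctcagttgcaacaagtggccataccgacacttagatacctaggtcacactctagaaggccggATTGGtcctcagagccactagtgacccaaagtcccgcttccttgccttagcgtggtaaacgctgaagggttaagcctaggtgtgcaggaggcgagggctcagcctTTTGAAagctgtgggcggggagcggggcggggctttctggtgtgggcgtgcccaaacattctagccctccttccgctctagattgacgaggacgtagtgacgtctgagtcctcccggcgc
Pcna: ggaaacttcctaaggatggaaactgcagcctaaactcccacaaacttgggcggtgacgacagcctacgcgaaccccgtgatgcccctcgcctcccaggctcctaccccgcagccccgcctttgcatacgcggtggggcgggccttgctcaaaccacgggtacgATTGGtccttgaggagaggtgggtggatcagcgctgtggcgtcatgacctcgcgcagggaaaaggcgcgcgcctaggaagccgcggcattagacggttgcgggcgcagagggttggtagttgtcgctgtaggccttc

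The motifs searched were CCAAT, which NF-Y binds, the CHR element as TTTGAA or TTCGAA, and E2F sites as TTGGCGC or TTCGCGC or TTCCCGC, on both strands. E2F matches on opposite strands can share bases with each other and with a CCAAT box. That box was present in 23 of the 27 promoters (85.2%), against 37.9% of the 27025 promoters of the table. A CHR was present in 15 (55.6%, against 19.4%), and an E2F match in 9 (33.3%, against 8.21%). Replication and mitosis genes differed in which motif they carried: a CHR stood in 12 of 16 mitotic and 3 of 11 replication promoters, and an E2F match in 3 of 16 and 6 of 11. TATAAA was found in 1 promoter (3.7%, against 14.2%). These shares describe letters in a window and were not tested. In the sequences above the CHR begins 33 bases after the start site in Aurka and 31 after it in Plk1, and 18 bases before it in Cdc20, 70 before it in Mcm2 and 173 before it in Mcm7.

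**Figure D1:**
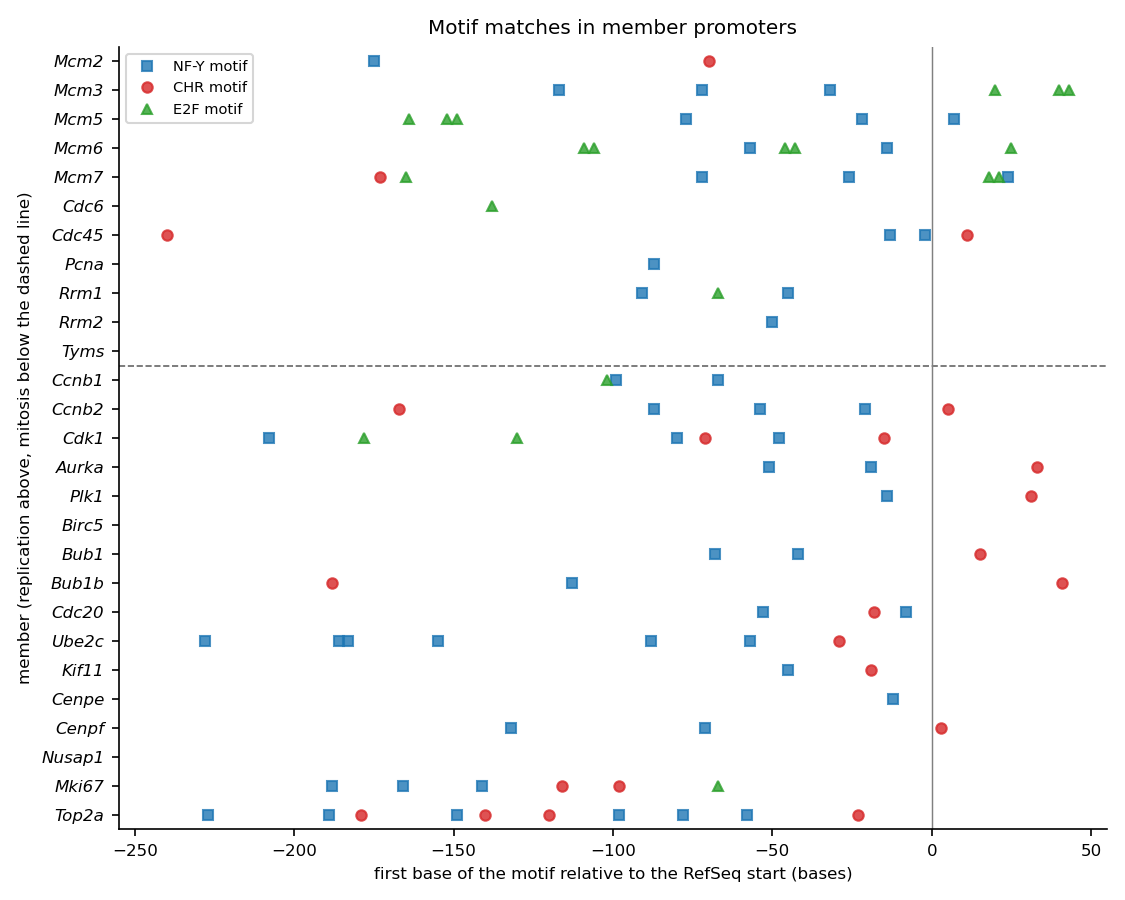
Positions of CCAAT, CHR and E2F matches in the 27 promoters, 1 row per gene, with the distance from the start site in bases on the horizontal axis. CCAAT matches stand in 23 of the 27 rows and CHR matches in 15.

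In WAT of fl/fl mice, NOX_6_18 against vehicle gave mostly lower calls among replication genes and mostly higher calls among mitosis genes. Of the 15 replication genes 9 fell and 1 rose, and of the 20 mitosis genes 9 rose and 1 fell, so that 20 of 35 passed the test (edgeR quasi-likelihood, adjusted p under 0.05). The background in this comparison was high: 37.8% of the 25871 genes tested were called, 24.6% higher and 13.2% lower. With 10 calls in each direction, the share of the 35 genes called lower was above that background and the share called higher was close to it. Their median log2 fold change was 0.07 against 0.12 over all genes tested; it was -0.31 for the replication genes and 0.22 for the mitosis genes. In bulk RNA a smaller share of dividing cells and less of a transcript per cell cannot be told apart.

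Mcm7, a subunit of the helicase ring, stood at 33.7 and 31.6 CPM on vehicle and at 43.2 and 43.3 CPM on NOX_6_18. Both vehicle libraries lay below both treated ones, and the rise was 0.41 ± 0.08 on the log2 scale (SE, adjusted p = 0.00535). The other 5 ring subunits went the other way. Mcm2 was at 33.0 and 31.5 CPM on vehicle and at 25.0 and 23.2 CPM on NOX_6_18, with no overlap, and fell by 0.42 ± 0.10 (adjusted p = 0.0106), or by 25.1%. With GC and length trends removed Mcm2 differed by -0.12 and was not called. Mcm3, Mcm4, Mcm5 and Mcm6 fell by 0.29 to 0.43 on the log2 scale, with adjusted p from 0.0138 to 0.0234. Exons of Mcm7 overlap those of Ap4m1, Cops6, Mir25 and Mir93, so part of its counts may belong to these. Cdc6, which loads the ring, was at 6.18 and 4.35 CPM against 5.76 and 5.04 CPM, and those ranges overlapped.

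At the fork, Gins2, a GINS subunit, was at 22.7 and 18.4 CPM on vehicle and at 11.5 and 10.5 CPM on NOX_6_18. The treated libraries were the lower pair, and the fall of 0.90 ± 0.19 (adjusted p = 0.00619) was the steepest among the 35 genes. Pcna, the sliding clamp, was at 185 and 160 CPM against 133 and 135 CPM and fell by 0.37 ± 0.09 (adjusted p = 0.0134). Neither pair overlapped the other for this gene. Gins1, another GINS subunit, the helicase activator Cdc45 and Pole, the leading-strand polymerase, had positive log2 differences of 0.21, 0.55 and 0.30 that did not pass the test; with GC and length trends removed Gins1 turned to -1.05. Of the genes that supply deoxynucleotides, Rrm2, the regulated subunit of ribonucleotide reductase, was at 20.2 and 20.8 CPM against 15.9 and 16.9 CPM and fell by 0.32 ± 0.10 (adjusted p = 0.0367). Tyms, thymidylate synthase, fell by 0.69 ± 0.22 (adjusted p = 0.0402), from 11.2 and 14.2 to 8.80 and 6.97 CPM. The large subunit gene Rrm1 lay between 62.1 and 68.6 CPM in all 4 libraries, with a difference of -0.04 ± 0.08.

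Of the cyclins and Cdk1, 1 fell and 1 rose. Ccna2, the cyclin of S phase and G2, was at 28.5 and 26.2 CPM on vehicle and at 17.9 and 15.98 CPM on NOX_6_18, a separated pair of groups and a fall of 0.69 ± 0.12 (adjusted p = 0.00228). Ccnb2, a mitotic cyclin, was at 18.5 and 15.8 CPM against 26.2 and 28.9 CPM, with the treated libraries higher, and rose by 0.69 ± 0.12 (adjusted p = 0.00256). This direction turned with GC and length trends removed, where Ccnb2 was at -0.46. Ccnb1, the other B cyclin, and Cdk1, the kinase that both activate, had differences of 0.25 ± 0.13 and -0.25 ± 0.15 and passed no test.

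The kinases gave the largest single difference. Aurka, which matures the centrosomes and the spindle poles, was at 7.497 and 6.14 CPM on vehicle and at 20.03 and 23.7 CPM on NOX_6_18. Every treated library was above every vehicle library, and the gene rose 3.21-fold (1.68 ± 0.14 on the log2 scale, adjusted p = 3.67e-05). Aurkb, its relative at the centromere, was at 10.3 and 9.76 CPM against 8.52 and 8.32 CPM (-0.25 ± 0.17, adjusted p = 0.291). Plk1, the Polo kinase of mitotic entry, was at 11.6 and 12.0 CPM against 24.1 and 22.6 CPM and rose 1.98-fold (adjusted p = 0.000218), while Birc5, the survivin subunit that works with Aurkb, differed by 0.20 ± 0.14. Cdc20, the activator of the anaphase-promoting complex, was at 14.8 and 15.9 CPM against 32.3 and 30.6 CPM. Its treated libraries were both the higher ones, and it rose 2.04-fold (adjusted p = 7.67e-05). Bub1, a checkpoint kinase, rose by 0.68 ± 0.16 (adjusted p = 0.012). Bub1b, the checkpoint protein that restrains Cdc20, differed by 0.11 ± 0.11, and Ube2c, the ubiquitin-conjugating enzyme of the complex, by -0.38 ± 0.15 (adjusted p = 0.0753).

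Cenpf, a large kinetochore protein, was at 12.2 and 18 CPM on vehicle and at 36.8 and 37.2 CPM on NOX_6_18. The vehicle libraries differed from each other more than the treated ones did, yet both were lower, and the rise was 2.45-fold (1.29 ± 0.16 on the log2 scale, adjusted p = 0.000425). Cenpe, the kinetochore motor, rose by 0.95 ± 0.14, Kif20a, a motor of cytokinesis, by 0.48 ± 0.09, and Kif11, the motor that separates the spindle poles, by 0.31 ± 0.09, with adjusted p from 0.00099 to 0.0278. The spindle assembly factors Tpx2 and Nusap1 differed by -0.15 ± 0.10 and 0.11 ± 0.15. The classical proliferation markers did not separate the groups: Mki67, the Ki-67 protein on mitotic chromosomes, was at 98.7 and 127 CPM against 114 and 110 CPM, and Top2a, topoisomerase II alpha, at 63.5 and 73.5 CPM against 71.7 and 72.5 CPM. Their log2 differences were -0.00 ± 0.13 (adjusted p = 0.985) and 0.07 ± 0.09 (adjusted p = 0.562).

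**Figure D2:**
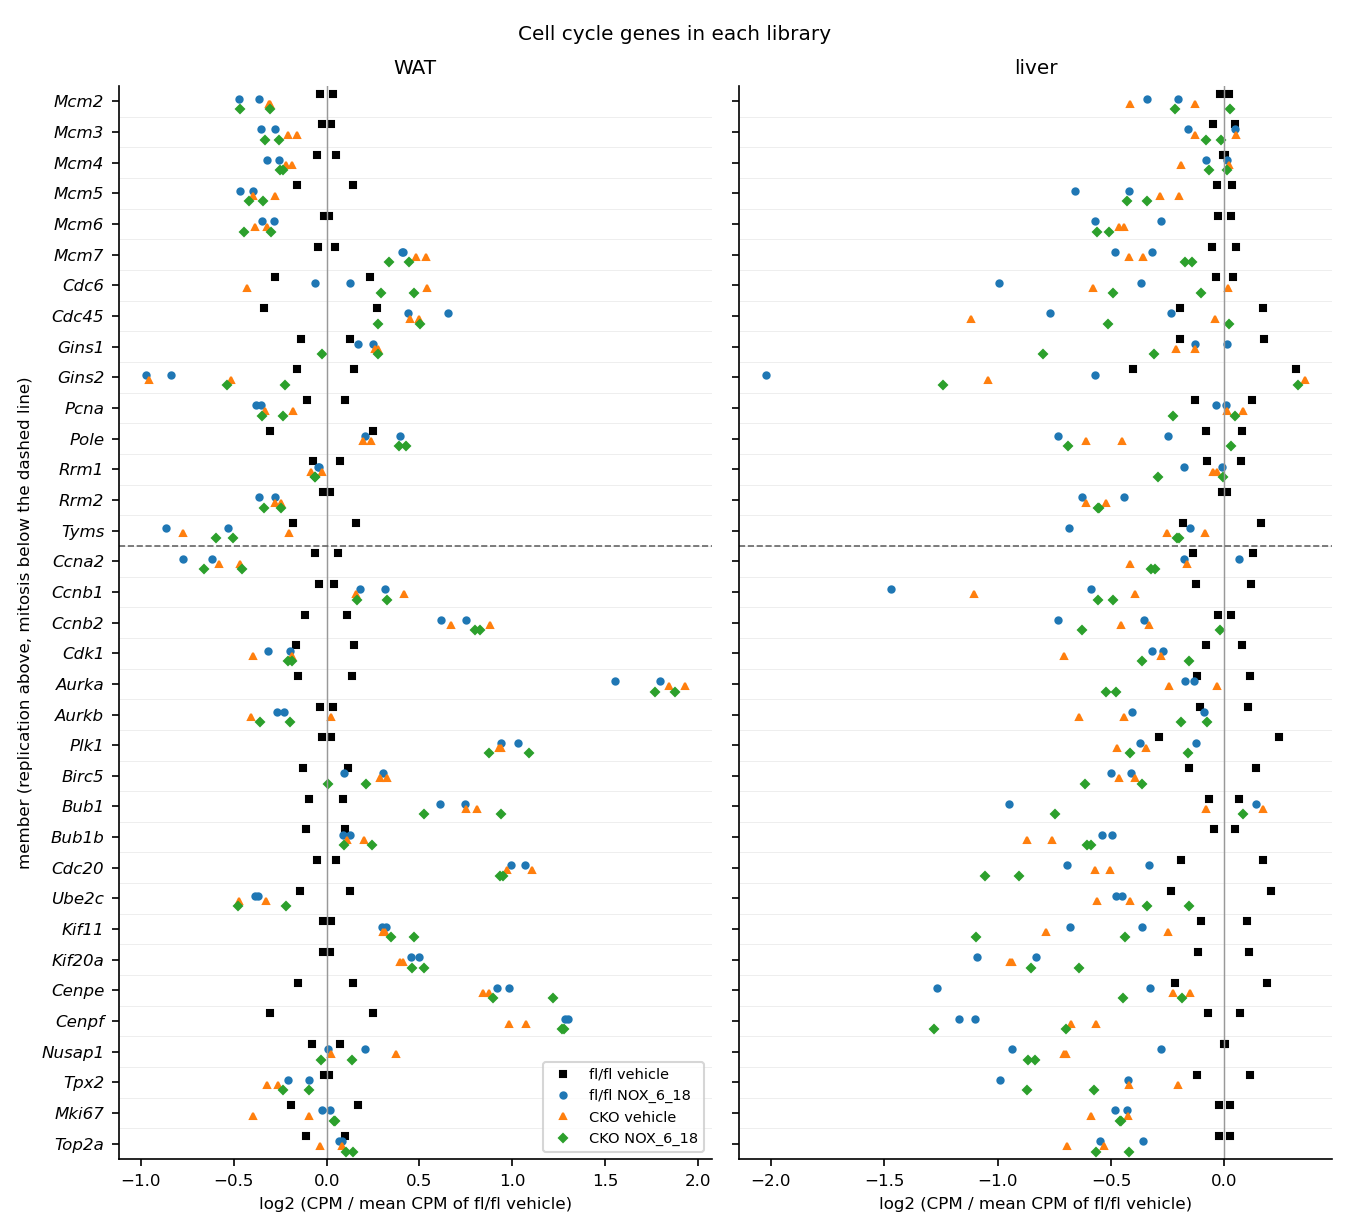
Log2 of each library's CPM over the mean CPM of the fl/fl vehicle libraries of its tissue, with 1 row per gene, 1 point per library, and symbols for the groups (WAT left, liver right). In WAT the 2 fl/fl vehicle libraries are the highest for 13 genes and the lowest for 12, and in liver they are the highest for 16.

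The lower calls depended on the libraries and the scaling. Without replicate 1 of the NOX_6_18 group 11 of the 35 genes were called and without replicate 2 10 were; of the 9 replication genes that fell, 2 and 0 were then called. Without vehicle replicate 1 or replicate 2, 14 and 19 genes were called. With library totals in place of TMM 12 genes were called higher and 2 lower, and with GC and length trends removed 8 higher and 13 lower; the median over all genes was 0.12, 0.29 and -0.02 under the 3 scalings. Mcm7, Aurka, Plk1, Cdc20, Kif20a, Cenpe and Cenpf were called higher under each of these scalings and without each library in turn, and of the lower calls Ccna2 was. Exons of Gins2, Ccna2, Plk1, Cdc20 and Kif20a also overlap another gene's. Beside these calls, Sycp1, a protein of the meiotic synaptonemal complex, was at 0.272 and 0.118 CPM in the vehicle libraries and at 19.3 and 16.6 CPM in the treated ones, and Prm1, a sperm protamine, at 2.99 and 2.60 CPM against 132 and 133 CPM. Their part in the result was not tested.

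In WAT on vehicle, CKO against fl/fl mice called 14 genes: of the replication genes 3 fell and 1 rose, and of the mitosis genes 9 rose and 1 fell. The 14 calls among 35 genes stood beside 36.8% of all genes tested, 24.4% higher and 12.4% lower, which is close to the share among the 35 in each direction. The median log2 fold change was 0.14 against 0.10 over all genes. This comparison shares the fl/fl vehicle libraries with the one above, so the values below are given side by side and their likeness is no separate evidence. The 10 genes called higher were 10 of 10 of those called higher after NOX_6_18, and the 4 called lower (Mcm2, Mcm6, Gins2, Ccna2) were among its 10.

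Aurka stood at 25.9 and 24.4 CPM in CKO mice on vehicle, against 7.497 and 6.14 CPM in fl/fl mice. Both CKO libraries were above both fl/fl libraries, and the gene was 3.70-fold higher (1.89 ± 0.14 on the log2 scale, adjusted p = 1.87e-05). Cdc20 at 33.1 and 30.1 CPM and Plk1 at 22.5 and 22.6 CPM were also higher, by 1.04 ± 0.10 and 0.93 ± 0.11. Cenpf was at 31.8 and 29.9 CPM, again above both fl/fl libraries, and rose by 1.03 ± 0.16 (adjusted p = 0.00152). Bub1, Cenpe, Kif20a and Kif11 rose by 0.31 to 0.86 with adjusted p from 0.00175 to 0.0285. Ccnb2 was at 31.5 and 27.2 CPM (0.78 ± 0.12, adjusted p = 0.00133), a direction that turned to -0.38 with GC and length trends removed. Ccna2 was at 19.8 and 18.3 CPM (-0.52 ± 0.12, adjusted p = 0.0094).

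Mcm7 was at 45.6 and 47.3 CPM in CKO mice and rose by 0.51 ± 0.08 (adjusted p = 0.00174). Its ring partners Mcm2 and Mcm6 fell by 0.31 ± 0.10 and 0.35 ± 0.08 (adjusted p = 0.0381 and 0.00916); with GC and length trends removed Mcm2 was at 0.01 and not called. Mcm3, Mcm4 and Mcm5 differed by -0.18 to -0.34 and missed the threshold, as did Pcna (-0.25 ± 0.09, adjusted p = 0.058) and Rrm2 (-0.26, adjusted p = 0.0778). Gins2 was at 14.4 and 10.6 CPM, below both fl/fl libraries, and fell by 0.72 ± 0.19 (adjusted p = 0.0179). Mki67 was at 85.7 and 105 CPM, on both sides of the lower fl/fl library, and differed by -0.24 ± 0.13 (adjusted p = 0.198). Without CKO vehicle replicate 2 the 14 calls became 9, and 0 of the 3 falling replication genes were then called. Of the 4 lower calls 0 held without each library in turn. The scalings split the calls 10 higher and 4 lower, 13 and 1 with library totals, and 10 and 10 with GC and length trends removed. The germ cell markers moved with this comparison as well, to 607 and 633 CPM of spermatocyte genes in the CKO vehicle libraries, and their part in the result was not tested.

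**Figure D3:**
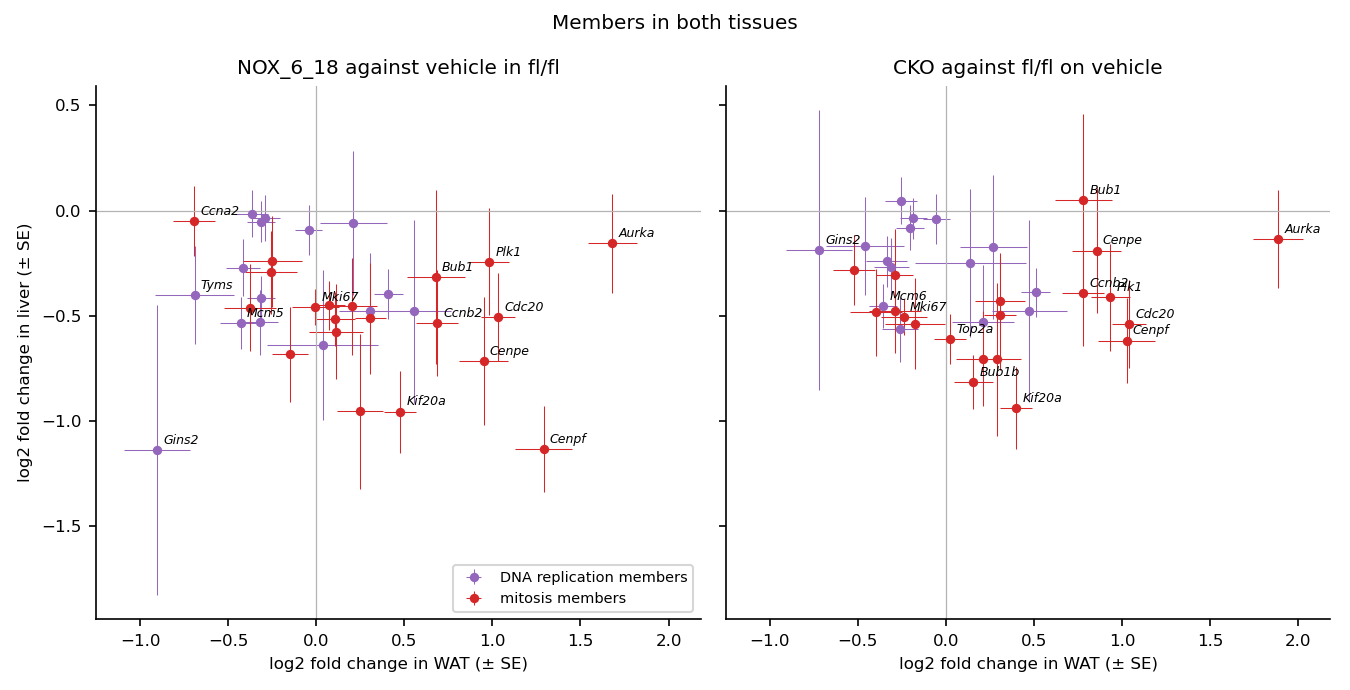
Log2 fold changes of the 35 genes in WAT (horizontal) and liver (vertical), with bars of 1 SE, for NOX_6_18 against vehicle in fl/fl mice (left) and CKO against fl/fl mice on vehicle (right). Aurka lies farthest to the right, at 1.68 and 1.89, and all 35 points on the left are below 0 on the liver axis.

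The remaining WAT comparisons, which do not use the fl/fl vehicle libraries, gave no call. In CKO mice NOX_6_18 against vehicle called 0 of the 35 genes by edgeR (0 at an unadjusted p under 0.05; DESeq2 and limma-voom also called 0, with 1 each unadjusted). Over all genes 0.0155% were called. Log2 differences ran from -0.20 ± 0.14 (Birc5) to 0.35 ± 0.19 (Gins2). On NOX_6_18, CKO against fl/fl mice also called 0 by edgeR, DESeq2 and limma-voom, with 0.0348% of all genes called, and 1 gene in each tool had an unadjusted p under 0.05. That gene in edgeR was Gins2, at 14.2 and 17.6 CPM against 11.5 and 10.5 CPM (0.53 ± 0.19, unadjusted p = 0.0214, adjusted p = 1). Aurka, for example, was at 25.0 and 23.2 CPM in CKO mice on NOX_6_18, against 20.03 and 23.7 CPM in fl/fl mice on NOX_6_18 and 25.9 and 24.4 CPM in CKO mice on vehicle.

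The treatment by genotype interaction in WAT, the NOX_6_18 effect in CKO mice minus that in fl/fl mice, called 9 of the 35 genes, 2 positive and 7 negative, beside 25.3% of all genes (6.71% positive, 18.6% negative), a share near that background. The median was 0.02 against -0.11 over all genes. Negative values, meaning a lower NOX_6_18 effect in CKO than in fl/fl mice, were found for Aurka (-1.75 ± 0.19, adjusted p = 0.000289), Cdc20 (-1.13 ± 0.14, adjusted p = 0.000474), Cenpf (-1.05 ± 0.23, adjusted p = 0.0108), Plk1 (-0.93 ± 0.15), Cenpe (-0.74 ± 0.19), Ccnb2 (-0.65 ± 0.17) and Mcm7 (-0.52 ± 0.12). Positive values were found for Gins2 (1.25 ± 0.26, adjusted p = 0.00989) and Ccna2 (0.66 ± 0.17, adjusted p = 0.0218), which had fallen in fl/fl mice. With GC and length trends removed the call count was 15, the split 9 positive and 6 negative, and Ccnb2 turned to 0.49. Within CKO mice the NOX_6_18 differences of the 7 genes with negative values ran from -0.12 (Mcm7) to 0.24 (Cenpf), with 0 called. All of these rest on the fl/fl vehicle libraries, which were below the other 6 WAT libraries for 12 of the 35 genes and above them for 13, where 30.5% and 20.8% of all genes tested did so.

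Ratios of related genes within a library do not depend on a scaling by a factor common to all its genes, such as TMM or library totals. Removing GC and length trends shifts each gene separately, and the ratios were not computed under that setting. The 5 pairs were chosen after their values were seen, so they describe the libraries and were not tested. Aurka over Aurkb was 0.629 to 0.731 in the fl/fl vehicle libraries of WAT and 2.35 to 3.44 in the other 6. The mitotic over the S phase cyclin, Ccnb2 over Ccna2, was 0.605 to 0.647 against 1.47 to 1.81. Within the helicase ring, Mcm7 over the mean of Mcm2 to Mcm6 was 0.691 to 0.697 against 1.13 to 1.23. Cenpf over Mki67 was 0.124 to 0.142 against 0.283 to 0.371, and the 20 mitosis genes over the 15 replication genes gave 0.731 to 0.835 against 1.01 to 1.15. In none of these did the 2 libraries overlap the other 6. The summed level does depend on the scaling: with TMM the 35 genes summed to 1048 and 1049 CPM in those 2 libraries and to 1046 to 1094 CPM in the other 6, and relative to unscaled library totals to 958 and 965 against 1076 to 1123 CPM, without overlap.

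**Figure D4:**
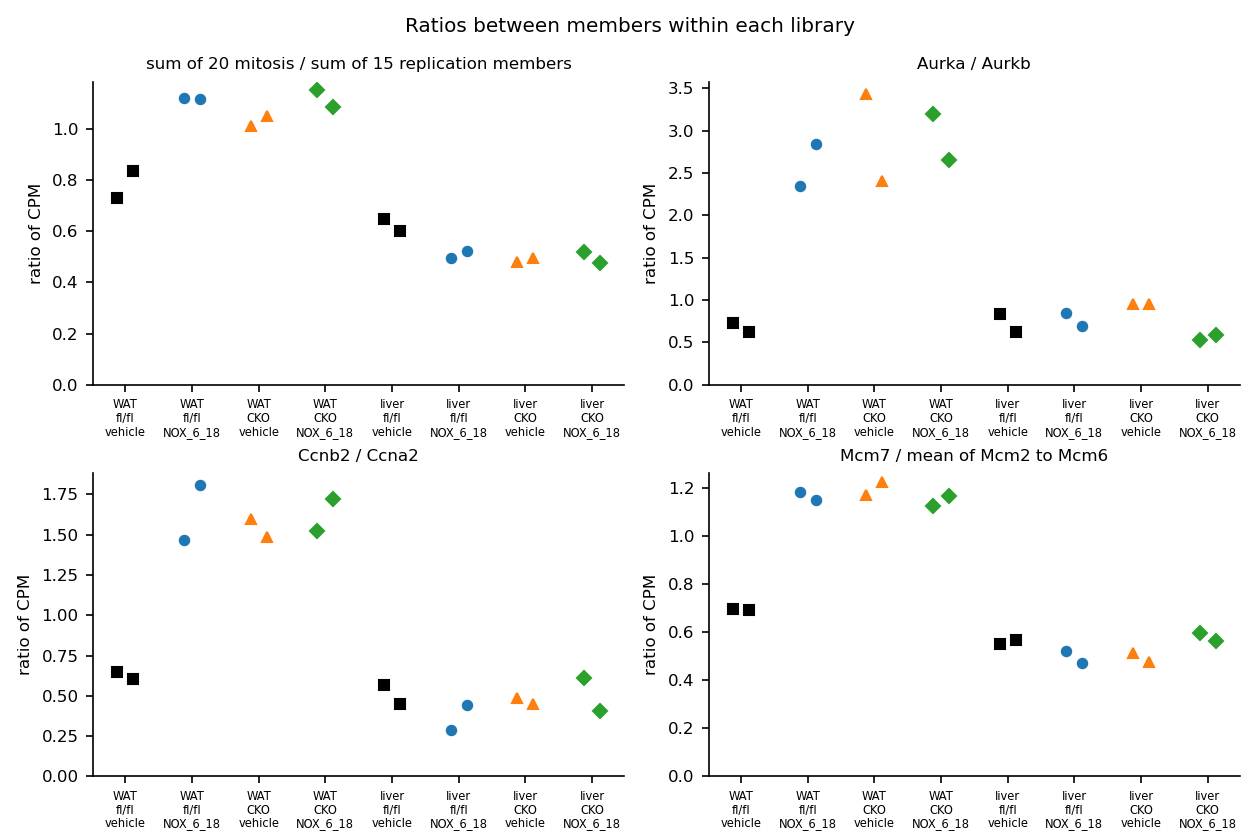
Ratios of CPM between genes within each of the 16 libraries, 1 point per library, in 4 panels (mitosis over replication genes, Aurka over Aurkb, Ccnb2 over Ccna2, Mcm7 over the mean of Mcm2 to Mcm6). In WAT the fl/fl vehicle points lie below all others in each panel, for example 0.629 to 0.731 against 2.35 to 3.44 for Aurka over Aurkb.

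In liver of fl/fl mice 4 of the 35 genes fell after NOX_6_18 and 0 rose, 1 in replication and 3 in mitosis. The log2 difference was negative for all 35, with a median of -0.46 against -0.00 over all 19515 genes tested; it was -0.40 for replication and -0.48 for mitosis genes. The 4 were Mcm5, Kif20a, Cenpf and Mki67, beside calls for 5.52% of all genes (3.78% higher, 1.74% lower), so lower calls were more frequent among the 35 than in that background. By DESeq2 and by limma-voom 6 were called, all lower. Under each scaling tried Kif20a, Cenpf and Mki67 stayed called, while Mcm5 lost its call with library totals.

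Cenpf was at 7.39 and 8.14 CPM on vehicle and at 3.45 and 3.62 CPM on NOX_6_18. Both treated libraries were lower, and the gene fell by 54.5% (-1.13 ± 0.21 on the log2 scale, adjusted p = 0.0161), where in WAT it had risen. Kif20a was at 4.91 and 5.74 CPM against 2.50 and 2.99 CPM, again without overlap, and fell by 0.96 ± 0.20 (adjusted p = 0.027). Mki67 was at 31.4 and 32.5 CPM against 22.9 and 23.7 CPM, narrow and separate pairs, and fell by 0.46 ± 0.09 (adjusted p = 0.0196). Mcm5 was at 14.8 and 15.5 CPM against 11.3 and 9.61 CPM and fell by 0.53 ± 0.12 (adjusted p = 0.0444). Just outside the threshold were Bub1b (-0.52 ± 0.13, adjusted p = 0.059), Mcm6 (-0.42 ± 0.10, adjusted p = 0.0601), Top2a (-0.45 ± 0.12, adjusted p = 0.0691) and Rrm2 (-0.53 ± 0.16, adjusted p = 0.0985). Pcna, the most abundant member, overlapped between the groups, at 40.1 and 47.8 CPM against 42.8 and 44.2 CPM (-0.01 ± 0.11). Aurka, which led in WAT, was at 2.51 and 2.14 CPM against 2.06 and 2.12 CPM, with no call (-0.16 ± 0.24, adjusted p = 0.813).

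In liver on vehicle, CKO against fl/fl mice called 5 of the 35 genes, all lower, beside 5.8% of all genes (3.96% higher, 1.83% lower), again a larger share lower than the background. The median was -0.41 against -0.01 over all genes, and 33 of the 35 differences were negative. Bub1b, the checkpoint protein, was at 9.56 and 10.2 CPM in fl/fl and at 5.39 and 5.82 CPM in CKO mice, well separated, and fell by 0.82 ± 0.13 (adjusted p = 0.00797). Top2a was at 20.3 and 19.7 CPM against 12.4 and 13.9 CPM and fell by 0.61 ± 0.12 (adjusted p = 0.0209). Mki67 at 21.2 and 23.8 CPM and Kif20a at 2.76 and 2.78 CPM were below both fl/fl libraries and fell by 0.51 ± 0.09 (adjusted p = 0.0118) and 0.94 ± 0.19 (adjusted p = 0.0279). Of the replication genes Mcm6 fell, from 31.8 and 33.1 to 23.5 and 23.9 CPM (-0.45 ± 0.10, adjusted p = 0.0415). Cenpf was at 4.86 and 5.25 CPM, a difference of -0.62 ± 0.20 that did not pass (adjusted p = 0.14). Kif20a and Mki67 were called in both liver comparisons, 2 of 4 and 2 of 5 calls, which share the fl/fl vehicle libraries. Of the calls with CKO, those of Bub1b, Kif20a, Mki67 and Top2a held under each scaling tried and that of Mcm6 did not.

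Every liver call for NOX_6_18 in fl/fl mice was lost whichever 1 of the 4 libraries compared was left out. No liver call for CKO on vehicle held without each library in turn. NOX_6_18 in CKO mice, and CKO against fl/fl mice on NOX_6_18, called 0 of the 35 genes by edgeR, DESeq2 and limma-voom, with 0 at an unadjusted p under 0.05 in each tool and 0.0359% of all genes called by edgeR in each. The range was -0.44 ± 0.21 (Cdc20) to 0.41 ± 0.22 (Aurkb) for the first and -0.48 ± 0.35 (Gins1) to 0.88 ± 0.69 (Gins2) for the second. The treatment by genotype interaction called 0 by edgeR, DESeq2 and limma-voom (9 at an unadjusted p under 0.05 by edgeR), beside 2.45% of all genes, and 3 when all 16 libraries shared the fit. Its smallest adjusted p values were those of Kif20a (1.15 ± 0.28, adjusted p = 0.0836) and Mki67 (0.51 ± 0.12, adjusted p = 0.0857), and 30 of 35 values were positive. The interaction shares the fl/fl vehicle libraries with the NOX_6_18 comparison in fl/fl mice, so these signs are no separate evidence. The fl/fl vehicle libraries were above the other 6 liver libraries for 16 of the 35 genes and below them for 0, where 12.2% and 12.7% of all genes were.

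Summed over the 35 genes, the fl/fl vehicle libraries of liver reached 358 and 370 CPM and the other 6 reached 288 to 306 CPM. The ratio of mitosis to replication genes was 0.6005 to 0.648 against 0.476 to 0.525, so in liver, unlike WAT, these 2 libraries were the higher ones. Cenpf over Mki67 was likewise higher in them, at 0.235 to 0.250 against 0.137 to 0.229, without overlap. Aurka over Aurkb (0.618 to 0.840 against 0.529 to 0.959) and Mcm7 over the mean of Mcm2 to Mcm6 (0.550 to 0.569 against 0.474 to 0.597) overlapped. Ccnb2 over Ccna2 overlapped too, at 0.45 to 0.565 against 0.289 to 0.613. Other markers moved with the same libraries. Red cell genes summed to 3702 and 3946 CPM against 1989 to 2180 CPM, neutrophil genes to 18.4 and 22.9 CPM against 94.4 to 105 CPM, and Kupffer cell genes to 1220 and 1260 CPM against 1472 to 1523 CPM. Their part in the result was not tested. Germ cell markers, which moved in WAT, were near 0 in liver: 13 spermatocyte genes summed to 1.12 to 2.03 CPM over the 8 libraries and Sycp1 was at 0 in each.

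**Figure D5:**
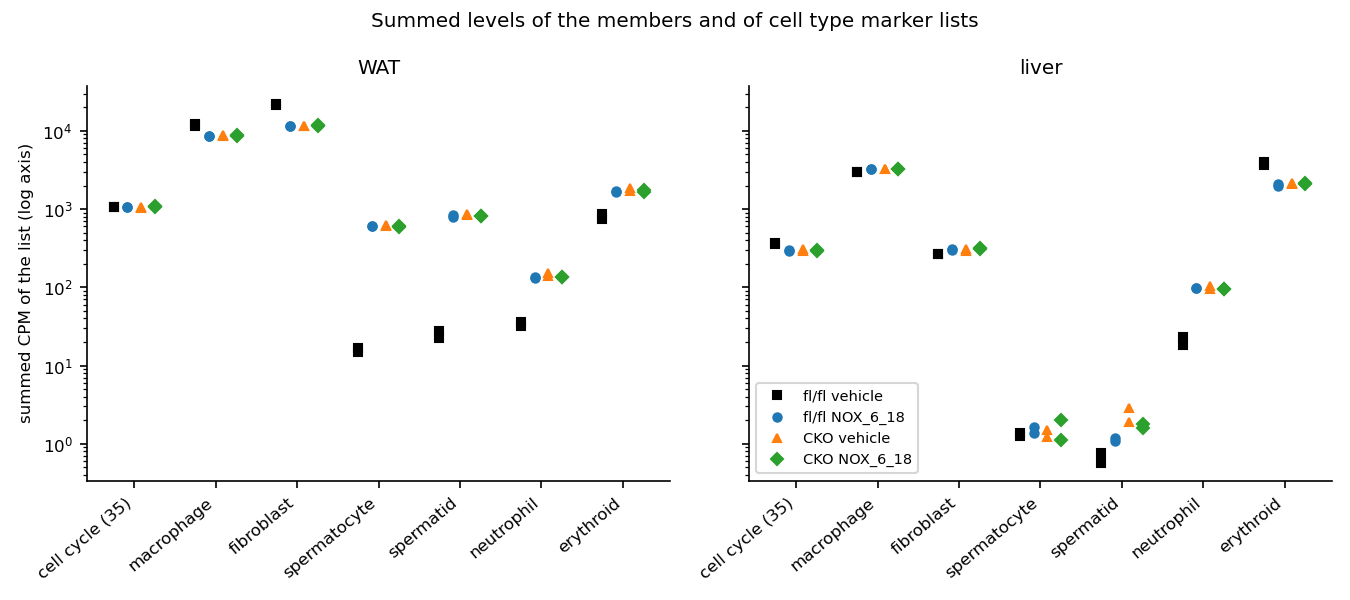
Summed TMM-scaled CPM, on a log axis, of the 35 genes and of 6 marker lists (macrophage, fibroblast, spermatocyte, spermatid, neutrophil, erythroid), 1 point per library, by tissue and group. The 35 genes summed to 358 and 370 in the fl/fl vehicle libraries of liver, against 288 to 306 in the other 6, while in WAT they summed to 1046 to 1094 in all 8.

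Between tissues, 23 of the 35 genes were higher in WAT than in liver of fl/fl mice on vehicle and 1 was lower, beside 38.2% of the 26751 genes tested (21.6% higher, 16.5% lower). With all 16 libraries scaled together, Pcna was at 126 and 111 CPM in WAT and at 57.8 and 68.6 CPM in liver (0.91 ± 0.11, adjusted p = 2.11e-05), with no overlap. Mki67 was at 67.1 and 87.6 CPM against 45.2 and 46.7 CPM, also apart (0.75 ± 0.12, adjusted p = 0.000279). Gins2 differed most, at 15.5 and 12.7 CPM against 4.24 and 2.57 CPM (2.04 ± 0.54, adjusted p = 0.00915). Mcm3 was the exception, lower in WAT at 34.6 and 34.2 CPM against 53.3 and 56.8 CPM (-0.68 ± 0.09, adjusted p = 3.85e-05), and Mcm6 was at 46.9 and 48.6 CPM against 45.9 and 47.6 CPM (0.03). Of the mitosis genes 16 of 20 were higher, and of the replication genes 7 of 15. The direction of Mcm3 depended on the scaling: library totals moved the median over all genes from 0.00 to 0.95, Mcm3 then read 0.27 and all 35 genes were called higher. Without liver fl/fl vehicle replicate 2, 13 genes were called.

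Levels per kilobase used the merged exons of all annotated transcripts of a gene. This length can exceed that of a single transcript, so the order of genes is approximate. On this scale Pcna led in both tissues, at a mean of 61.7 CPM per kb over the 8 WAT libraries (range 55.3 to 77.1). In liver its mean was 18.1 (15.6 to 19.9). No other gene reached its range. In WAT Ccnb2 (17.0), Cdc20 (14.4) and Mcm6 (12.5) came next, and in the fl/fl vehicle libraries alone Mcm6 at 14.8 and 15.05 CPM per kb lay above Ccnb2 at 12.1 and 10.3. In liver the helicase followed, with Mcm3 at 9.96 CPM per kb (9.13 to 10.6), Mcm6 at 5.52, Mcm4 at 4.63 and Mcm5 at 3.13. Averaged over all 8 libraries Cdc6 was lowest, at 1.12 CPM per kb in WAT and 0.275 in liver, although Cenpf had the lower mean in WAT of fl/fl mice on vehicle (0.979 against 1.01) and in liver of CKO mice on NOX_6_18 (0.258 against 0.273). These are levels on the scale of each tissue's own fit and are not set against each other across tissues.

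Between tissues the NOX_6_18 effect in fl/fl mice differed for 10 of the 35 genes, all with the larger log2 value in WAT, beside 14.7% of all genes tested (7.52% positive, 7.2% negative). The median was 0.54 against 0.15 over all genes. Cenpf differed most, by 2.43 ± 0.28 (adjusted p = 0.000121), since it rose in WAT and fell in liver. Aurka (1.84 ± 0.22, adjusted p = 0.000161), Cdc20 (1.54 ± 0.21, adjusted p = 0.00042), Kif20a (1.44 ± 0.18, adjusted p = 0.000271) and Cenpe (1.66 ± 0.35, adjusted p = 0.00711) followed. Plk1, Ccnb2, Mcm7, Bub1b and Top2a differed by 0.53 to 1.23. Of the 10, 9 are mitosis genes and 1, Mcm7, is a replication gene. With GC and length trends removed 11 were called positive and 4 negative, and Ccnb2, at 0.14, was not called. The fl/fl vehicle libraries of both tissues enter this contrast, and the part of the germ cell markers, which differed in WAT and were near 0 in liver, was not tested.

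Other genes of the same pathway, from lists that do not contain the 35, were read beside them. These lists too were chosen with earlier results of these data known. In WAT of fl/fl mice on NOX_6_18 against vehicle, 13 of 37 further mitosis genes were called higher and 4 lower (median 0.12). Over all genes 24.6% were called higher and 13.2% lower. The fl/fl vehicle libraries described above enter this comparison, and the part of their markers in these calls was not tested. Nek2, a centrosome kinase, rose by 2.00 ± 0.19 (adjusted p = 7.36e-05), from 6.79 and 10.5 CPM to between 29.8 and 35.1 CPM in the other 6 libraries. Cdc25c, the phosphatase that activates Cdk1, rose by 1.99 ± 0.22, Kif2c, a microtubule depolymerase, by 1.56 ± 0.11, and Cdca3, a trigger of mitotic entry, by 1.46 ± 0.10, with adjusted p from 1.51e-05 to 0.000204. Of 35 further replication genes 4 rose and 7 fell (median -0.20), fewer higher than that background. The risers were Dtl, a ubiquitin ligase adaptor (1.27 ± 0.13), Brca2 of homologous recombination (1.19 ± 0.20), Chaf1a of chromatin assembly (1.14 ± 0.09) and the flap nuclease Fen1 (1.03 ± 0.13).

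Of 13 G1 cyclins, kinases and their regulators 1 rose and 6 fell after NOX_6_18 in WAT of fl/fl mice (median -0.38). Over all genes tested 24.6% were called higher and 13.2% lower, the background for each list in this comparison. Ccnd1, cyclin D1, was at 176 and 179 CPM in the fl/fl vehicle libraries of WAT and at 121 to 132 CPM in the other 6, a separated set, and fell by 0.54 ± 0.06 after NOX_6_18 (adjusted p = 0.000279). E2f1 and E2f3, transcription factors of S phase entry, fell by 0.64 ± 0.10 and 0.64 ± 0.12, and the phosphatase gene Cdc25a rose by 0.63 ± 0.11. Of 17 cell cycle inhibitors 0 rose and 4 fell by edgeR, DESeq2 and limma-voom alike (6 of 17 at an unadjusted p under 0.05 in edgeR), with Btg2, an antiproliferative gene, falling by 0.57 ± 0.05 (adjusted p = 3.61e-05). Of 12 meiotic counterparts of mitotic genes 10 rose and 0 fell (11 at an unadjusted p under 0.05). Stag3, a meiotic cohesin subunit, was at 2.31 and 2.34 CPM against 47.4 to 57.8 CPM in the other 6 libraries, Smc1b, another, at 0.566 and 0.531 against 26.3 to 31.7 CPM, and Rec8, the meiotic kleisin, at 2.51 and 2.66 against 13.1 to 14.7 CPM. In CKO against fl/fl mice on vehicle, 13 of the further mitosis genes were higher and 3 lower, 4 and 11 of the replication genes, 2 and 5 of the G1 genes, 0 and 2 of the inhibitors and 10 and 0 of the meiotic genes, beside 24.4% and 12.4% of all genes.

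In liver of fl/fl mice these lists gave few calls after NOX_6_18, beside 3.78% higher and 1.74% lower over all genes. Of the further mitosis genes Kif2c fell by 1.496 ± 0.32 (adjusted p = 0.0343), whereas it had risen in WAT; of the further replication genes edgeR called 0 (10 at an unadjusted p under 0.05) and DESeq2 and limma-voom 1 each, with Lig1, the ligase of Okazaki fragments, at -0.43 (adjusted p = 0.0635). Ccnd1 was at 220 and 212 CPM on vehicle and at 158 to 171 CPM in the other 6 liver libraries, and fell by 0.42 ± 0.05 (adjusted p = 0.00146). It fell in both tissues. The inhibitors Cdkn2c (-0.88 ± 0.16, adjusted p = 0.0182), Btg1 (-0.46, adjusted p = 0.0207) and Rbl1 (-0.53, adjusted p = 0.0295) fell as well. In CKO mice on vehicle Prc1, a spindle midzone protein, fell by 1.02 ± 0.19 (adjusted p = 0.0181), and Ccnd1, E2f2, Cdkn2c and Btg1 were called lower, beside 1.83% of all genes.

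The promoter motifs can be set beside the WAT calls of NOX_6_18 in fl/fl mice. A CHR was present in 8 of the 9 matched genes called higher (88.9%), in 1 of 7 called lower (14.3%) and in 6 of 11 not called (54.5%). The CCAAT box did not divide them in this way, at 9 of 9, 6 of 7 and 8 of 11. The matched genes called lower were all replication genes, and those called higher were mitosis genes apart from Mcm7. Direction and role therefore cannot be told apart in these shares. The comparison was drawn with the calls known and was not tested. Of the sequences printed above, Mcm2 is the gene called lower with a CHR, and Mcm7 is a replication gene called higher with one. The CHR of Mcm7 lies outside an alternative window that starts 150 bases before the start site.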

How the data were processed

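RNA-seq libraries, 16 in all and 2 in each of 8 groups, were grouped by their titles. The authors deposited raw read counts per gene, 1 table per library; HISAT, featureCounts 1.5.0, DESeq 1.8.3 and GRCm38 are named without role per the submitters' processing notes, and a KAPA stranded kit and TRIzol per the labels' protocols. The strand setting of the counting is not given in the sources used here, so reads of overlapping genes cannot be assigned; 11 of the 35 genes overlap another gene's exon (Mcm7, Cdc45, Gins2, Pole, Ccna2, Plk1, Cdc20, Ube2c, Kif20a, Nusap1, Top2a). Identifiers were matched to symbols in GENCODE M21 (99.7% of 55421 genes). No 2 libraries held identical values (0 identical pairs).

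Tests were edgeR 4.0.16 quasi-likelihood tests (R 4.3.3) on the counts, with TMM scaling, filterByExpr on the groups, a group-means model and Benjamini-Hochberg adjustment over all genes tested; a call is an adjusted p under 0.05. Each tissue was fitted with its 8 libraries together, which kept 25871 genes in WAT and 19515 in liver; comparisons across tissues used all 16 (26751). SE is the size of the log2 fold change divided by the root of the F statistic. CPM are counts relative to the TMM-scaled library total. The fitting code was tested on simulated counts, for NOX_6_18 against vehicle in WAT of fl/fl mice only. The members and lists were chosen with earlier results of these data known. All 35 members were named, grouped by role, with values by library for the called gene of smallest adjusted p in each role or else the most abundant, and some others; from each other list up to 4 called genes were named. Promoters were those of RefSeq (GRCm38.p6). Alternatives were other scalings, filters, tools (DESeq2 1.42.0, limma 3.58.1), a replicate block, and leaving out libraries.

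Replicate numbers recur across groups. Within each tissue, deviations from group means correlated between same-numbered libraries of different groups by -0.073 to 0.030, so the numbers were not taken as pairs. Pairing of WAT with liver libraries was not checked, and the comparisons across tissues treated them as unpaired.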

Additional observations from a re-analysis of the deposited data

Results flagged for a closer look

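Tests of a difference between effects singled out 19 values. In WAT the NOX_6_18 effect differed between CKO and fl/fl mice (log2, CKO minus fl/fl) for Mcm7 (-0.52), Gins2 (1.25), Ccna2 (0.66), Ccnb2 (-0.65), Aurka (-1.75), Plk1 (-0.93), Cdc20 (-1.13), Cenpe (-0.74) and Cenpf (-1.05). In fl/fl mice the NOX_6_18 effect differed between WAT and liver (log2, WAT minus liver) for Mcm7 (0.81), Ccnb2 (1.23), Aurka (1.84), Plk1 (1.23), Bub1b (0.63), Cdc20 (1.54), Kif20a (1.44), Cenpe (1.66), Cenpf (2.43) and Top2a (0.53). All 19 include the fl/fl vehicle libraries of WAT.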

How the results depend on the processing

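With 2 libraries a group, counts of called genes moved with single libraries: over the fits without 1 library they ran from 10 to 19 for NOX_6_18 in WAT of fl/fl mice (20 with all), 9 to 16 for CKO in WAT (14), 6 to 10 for the WAT interaction (9), 0 to 1 for NOX_6_18 and 0 to 2 for CKO in liver (4 and 5), 13 to 18 for WAT against liver (24) and 8 to 13 for treatment by tissue (10); the lone library left in a group was assumed to vary like the other groups. A minimum log2 fold change of 1 in size left 3, 3 and 4 genes in these WAT comparisons, 1 and 0 in those liver comparisons, and 3 for WAT against liver. With GC and length trends removed the WAT interaction called 15. With the other groups left out of the fit, liver NOX_6_18 called 2, and with all 16 libraries the liver interaction called 3. Signs reversed with GC and length trends removed for Gins1 (-1.05) and Ccnb2 (-0.46) after NOX_6_18 in WAT, for Mcm2 (0.01), Gins1 (-1) and Ccnb2 (-0.38) with CKO, for Gins1 (0.91) and Ccnb2 (0.49) in the interaction, and for Rrm2 (-0.51) in treatment by tissue. With library totals, WAT against liver reversed for Mcm2 (0.70), Mcm3 (0.27), Cenpf (0.84) and Brca2 (0.30). The cause was not tested. With the replicate number as a block, the calls were 18 and 13 for NOX_6_18 in fl/fl mice and CKO in WAT, 9 for the WAT interaction, 3 and 4 in liver, 22 for WAT against liver and 10 for treatment by tissue. When the fl/fl vehicle libraries were not fitted, an alternative chosen after seeing the data, the other contrasts of each tissue still called 0 genes. Promoter windows from 150 bases before to 50 bases after the start site, also added later, held CCAAT, CHR and E2F matches in 22, 14 and 9 of 27 genes. Mcm7 had no CHR in the shorter window.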
